A study of Mus musculus with 4 samples.

Results

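The genes described here are Pou5f1, Sox2, Klf4, Myc and Mycn, the transcription factors most used to reprogram somatic cells together with the second major Myc gene of embryonic stem cells. They were taken by symbol from a list of 5 genes, and all 5 were measured, by 8 probe sets annotated to a single gene, out of 18193 genes and 45037 probe sets other than controls. Klf4 had 2 probe sets and Mycn had 3, while Pou5f1, Sox2 and Myc had 1 each. Pou5f1 lies on chromosome 17, Sox2 on 3, Klf4 on 4, Myc on 15 and Mycn on 12. Transcripts were read on 4 mouse arrays from Affymetrix. The 3 nuclear transfer embryonic stem cell (NT-ESC) lines, called lines 1, 2 and 3, are labelled as subclones of cloned blastocyst origin obtained with the iPSC clone as nuclear donor. Their donor was an induced pluripotent stem cell (iPSC) clone, derived from tail-tip fibroblasts by means of adenoviral vectors, with 1 array. All 4 cultures shared a medium of serum with LIF and a layer of irradiated mouse fibroblasts, and were replated for 45 minutes to take the fibroblasts away. The labels name neither the factors the vectors carried nor the mouse strain, nor whether the lines were derived separately. The array of line 3 stood apart from the others: set against the other 3 arrays, limma called 84 genes for it and 0 for line 1 or line 2, although there were 0 when any 1 of the others was left out of that fit. Differences of the members between lines and clone are given with and without line 3 where leaving it out moved them. Between pairs of arrays Pearson's r across genes was 0.9951 to 0.9979, and genes are not independent replicates.

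Oct4, encoded by Pou5f1, and Sox2 bind DNA together at enhancers of pluripotency genes, including their own, and hold the undifferentiated state. Klf4 is a zinc finger factor downstream of LIF and STAT3 that joins them at many of these enhancers. Myc and its paralogue N-Myc, encoded by Mycn, pair with Max on E-box sequences and drive ribosome production, metabolism and cell division. N-Myc is abundant in embryonic stem cells, and either Myc protein can serve in reprogramming. Adenoviral vectors do not normally integrate, so levels in such a clone are usually read as those of the endogenous genes, but whether a probe set could also read a vector transcript was not determined here.

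The promoters of 4 members were held in the RefSeq table of build GRCm38.p6, as windows from 250 bases before to 50 bases after a gene's start. Those of Mycn, Klf4 and Pou5f1 are shown because Mycn differed most between the arrays, Pou5f1 differed least, and Klf4 was the 1 of these 4 members whose window held the sequence that Myc proteins bind. Capitals mark matches on either strand to the E-box CACGTG, the GC box GGGCGG bound by Sp and Klf factors, and the E2F-type sequences TTTGGCGC and TTTCGCGC. The octamer ATGCAAAT was searched too and had no match in these windows. These motifs were chosen after the sequences had been seen.
Mycn: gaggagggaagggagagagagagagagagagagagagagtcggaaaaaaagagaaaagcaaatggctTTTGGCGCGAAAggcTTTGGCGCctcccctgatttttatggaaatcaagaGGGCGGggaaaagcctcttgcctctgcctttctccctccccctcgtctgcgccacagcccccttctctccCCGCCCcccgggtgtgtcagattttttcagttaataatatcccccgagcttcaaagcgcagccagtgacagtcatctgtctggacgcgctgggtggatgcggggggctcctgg
Klf4: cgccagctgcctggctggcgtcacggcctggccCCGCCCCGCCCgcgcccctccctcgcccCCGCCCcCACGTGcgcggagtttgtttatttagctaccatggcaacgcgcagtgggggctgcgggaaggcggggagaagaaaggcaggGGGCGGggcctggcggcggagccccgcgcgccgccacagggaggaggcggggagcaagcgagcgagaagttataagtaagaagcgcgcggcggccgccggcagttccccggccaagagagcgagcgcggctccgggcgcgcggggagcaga
Pou5f1: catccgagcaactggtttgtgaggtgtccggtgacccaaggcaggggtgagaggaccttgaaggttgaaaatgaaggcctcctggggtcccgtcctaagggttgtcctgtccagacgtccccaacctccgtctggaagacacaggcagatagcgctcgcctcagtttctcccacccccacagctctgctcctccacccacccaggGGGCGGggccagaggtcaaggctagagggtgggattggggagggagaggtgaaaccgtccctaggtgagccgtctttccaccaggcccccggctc

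The Mycn window, chr12:12941787-12942086 on the minus strand, held TTTGGCGC beginning 183 and 168 bases before the start. It also held TTTCGCGC read on the other strand, beginning 179 bases before the start and overlapping the first of them. Of 32851 promoter windows 0.514% held TTTGGCGC and 0.323% held TTTCGCGC. The Klf4 window, chr4:55532426-55532725 on the minus strand, held the E-box 182 bases before the start, and 7.15% of windows held it. GC boxes, found in 35.7% of windows, numbered 4 in the Klf4 window, 2 in that of Mycn, 2 in that of Sox2 and 1 in the first window of Pou5f1, chr17:35505782-35506081 on the plus strand. A match describes letters in the window and says nothing about binding.

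Levels below are on a log2 scale with the mean of each array set to an assumed 7, because the deposited values give each probe set relative to its array mean. The sign of a difference and the order of the arrays do not depend on the mean assumed, provided that it is the same for all 4 arrays. Whether the arrays shared a mean is not known. The size of a difference depends on the mean assumed. Genes are called bright where their mean reached 6.83, the median of all probe sets. Ranks count from the brightest gene on an array. They also reflect how well a probe set binds, so a rank is compared between arrays for 1 gene and not between genes.

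Pou5f1 varied least across the 4 arrays. Its probe set, 1417945_at, stood at 12.25, 12.21 and 12.20 in lines 1, 2 and 3, against 12.22 in the iPSC clone. The clone lay inside the range of the lines, and the whole range was 0.04. Its rank was 195, 206 and 196 in the lines, against 199 in the clone. The mean difference between lines and clone was 0.00 ± 0.08 (SE), with a 95% interval from -0.19 to 0.19, or 0.877 to 1.14 as a fold. The deposited values carry 3 decimals, which makes a step of at most 0.00875 at these levels, so the Pou5f1 differences span only a few steps. In bulk RNA a smaller share of cells with a transcript and less transcript per cell cannot be told apart, here and for every gene below.

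**Figure D1:**
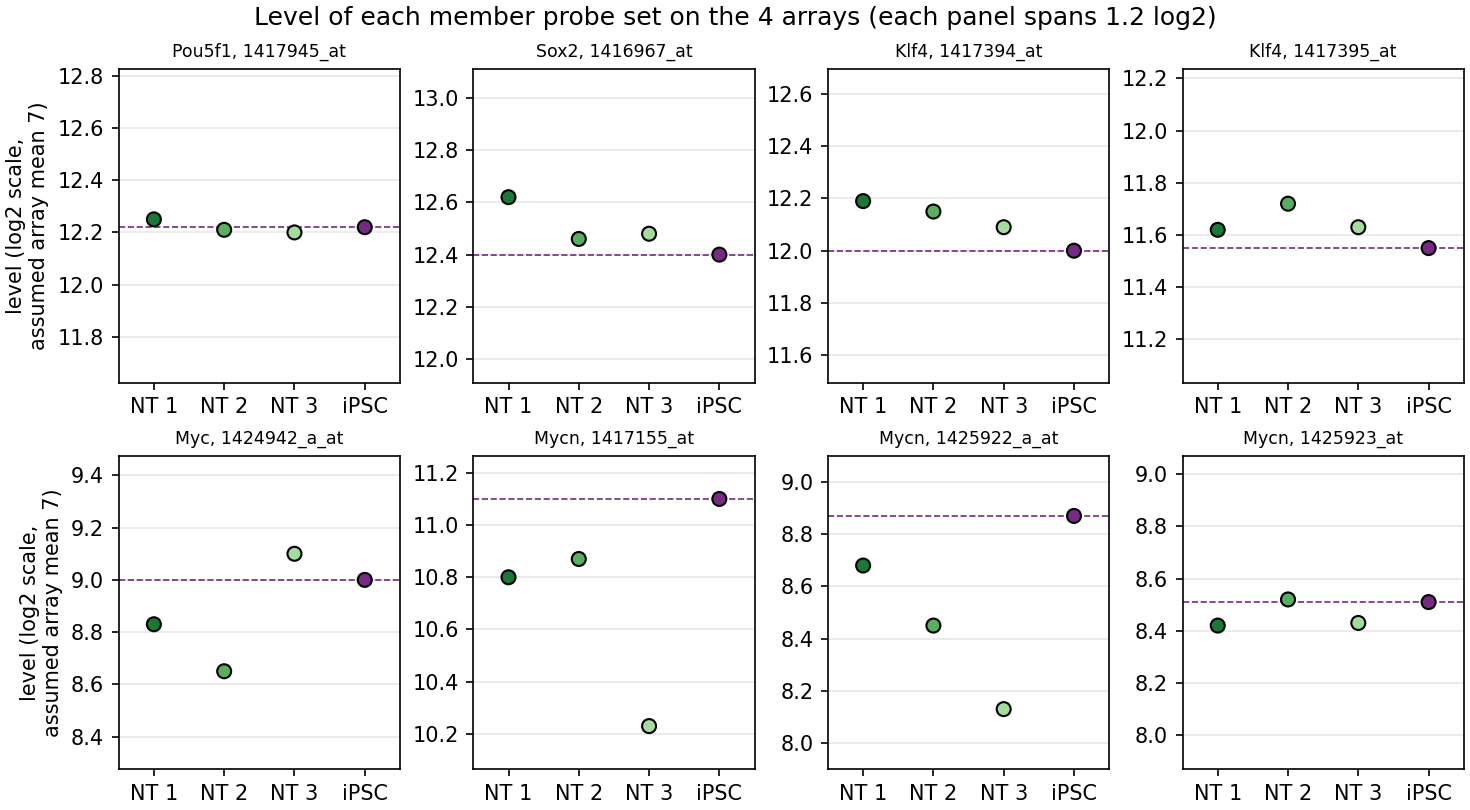
Level of each of the 8 probe sets (y axis, log2 scale with an assumed array mean of 7) on the arrays of NT-ESC lines 1 to 3 and of the iPSC clone (x axis), 1 point per array, with the clone's level as a dashed line. Pou5f1 spans 0.04, Sox2 and Klf4 lie above the clone in all 3 lines, and 2 of the 3 Mycn probe sets lie below it in all 3 lines and lowest in line 3.

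Sox2, read by 1416967_at, was at 12.62, 12.46 and 12.48 in the lines, against 12.40 in the clone. All 3 lines lay above the clone, line 1 the farthest, and lines 2 and 3 by 0.06 and 0.08. The mean difference was 0.12 ± 0.10 (SE), with an interval from -0.12 to 0.36. Without line 1 it was 0.069, and without line 3 it was 0.139. Its rank was 112, 142 and 136 in the lines, against 146 in the clone.

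Klf4 showed a difference of similar size by both of its probe sets. The brighter one, 1417394_at, stood at 12.19, 12.15 and 12.09 in the lines, against 12.00 in the clone. The other, 1417395_at, stood at 11.62, 11.72 and 11.63 in the lines, against 11.55 in the clone. Each line lay above the clone on both, but the order of the lines was not the same, with line 1 highest on the first and line 2 on the second. The mean differences were 0.14 ± 0.08 (SE) for the gene, read from the brighter probe set, and 0.11 ± 0.09 for the other. The interval for the gene ran from -0.07 to 0.35, and its difference was 0.168 without line 3. The annotation gives both probe sets the same source record, and they are not independent readings of the samples.

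Myc varied more between the arrays than Pou5f1, Sox2 and Klf4 did, over a range of 0.46. Its probe set, 1424942_a_at, stood at 8.83, 8.65 and 9.10 in lines 1, 2 and 3, against 9.00 in the clone. Lines 1 and 2 were below the clone and line 3 above it, so the groups overlapped. The mean over lines was 8.86 ± 0.23 (SD, n = 3), and the difference from the clone was -0.14 ± 0.18 (SE), with an interval from -0.58 to 0.29. As a fold this interval runs from 0.669 to 1.23. The difference was -0.264 without line 3, the 1 line above the clone, and -0.036 without line 2, the lowest. Myc ranked 5080, 5623 and 4230 in the lines, against 4440 in the clone.

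Mycn had the widest range of the 5 genes, 0.86. Its brightest probe set, 1417155_at, stood at 10.80, 10.87 and 10.23 in lines 1, 2 and 3, against 11.10 in the clone. All 3 lines lay below the clone, lines 1 and 2 by 0.30 and 0.23 and line 3 by 0.86. The rank moved with it, at 989, 918 and 1674 in the lines, against 681 in the clone. The mean over lines was 10.64 ± 0.35 (SD, n = 3), and the difference from the clone was -0.46 ± 0.25 (SE), a fold of 0.725 with an interval from 0.469 to 1.12. Without line 3 the difference was -0.262 (limma, unadjusted p = 0.0286, Benjamini-Hochberg adjusted p = 0.609). Of the 18193 genes, each read by its brightest probe set, 37 had a lower difference than Mycn with all lines in the fit. With the mean of the Mycn probe sets in place of the brightest, the difference was -0.319.

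The probe sets of Mycn did not all show this. The second, 1425922_a_at, stood at 8.68, 8.45 and 8.13 in the lines, against 8.87 in the clone, again with all lines below the clone and line 3 lowest, and its difference was -0.45 ± 0.20 (SE). The remaining one, 1425923_at, stood at 8.42, 8.52 and 8.43 in the lines, against 8.51 in the clone. Its range over the arrays was 0.09, its difference -0.05 ± 0.09, and line 2 lay just above the clone. The annotation gives the second and this one the same source record and the first another. Which parts of the transcript they read was not determined here.

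None of these differences passed the test. limma called 0 of the 5 genes at a Benjamini-Hochberg adjusted p under 0.05, and it called 0 of all 18193 genes (0%). The adjusted p was 0.856 for Mycn, 0.861 for Klf4, 0.887 for Sox2, 0.926 for Myc and 1 for Pou5f1 by limma. At an unadjusted p under 0.05 it passed 0 of the 5, against 5.53% of all genes. The 8 probe sets gave the same count of 0 in a fit over all 45037 probe sets, of which 0% were called and 5.79% had an unadjusted p under 0.05. Sox2 and Klf4, with all lines above the clone, shared that with 24.7% of all genes and 29.9% of bright genes. Mycn, with all lines below it, shared that with 26.7% of all genes and 21.4% of bright genes.

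**Figure D2:**
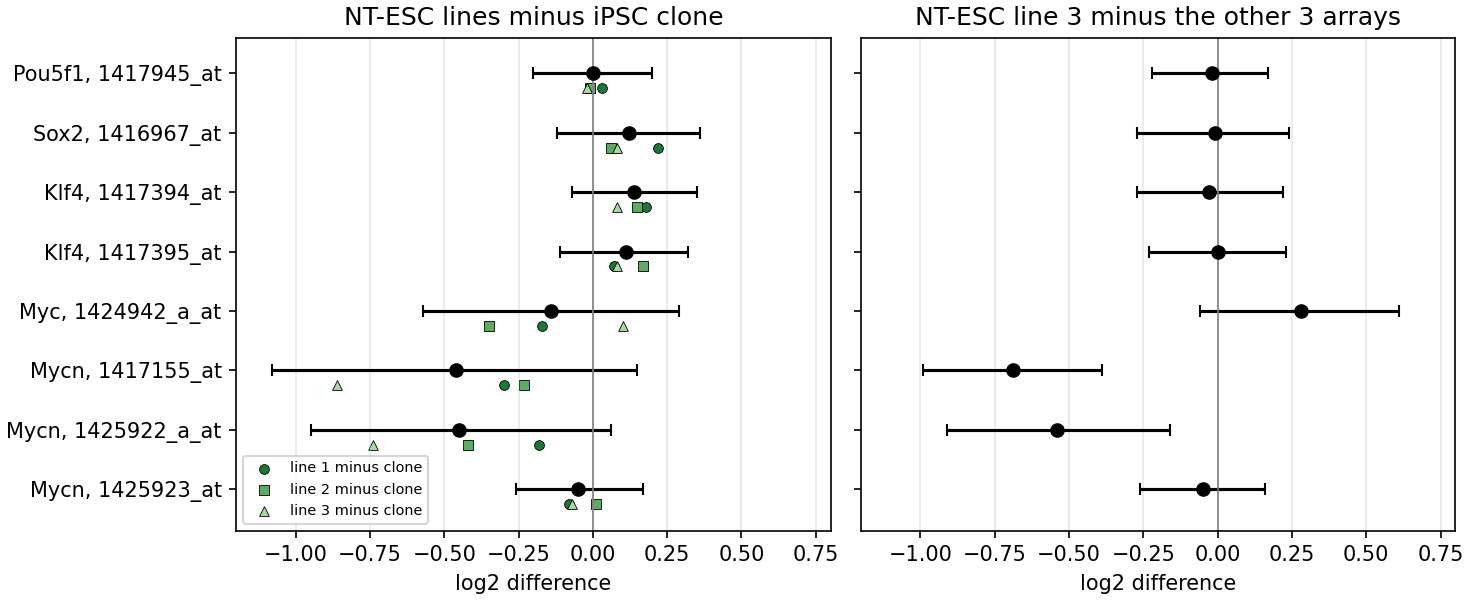
Log2 difference (x axis) of each probe set (y axis) for the mean of the NT-ESC lines minus the iPSC clone (left) and for line 3 minus the other 3 arrays (right), with black points for the estimate, bars for limma's 95% interval and coloured marks for each line minus the clone. All 8 intervals on the left include 0, and on the right those of 2 Mycn probe sets lie below it.

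Because the array of line 3 stood apart, each member was also set against the other 3 arrays as a group. By its brightest probe set Mycn was lower in line 3 than on every other array. It stood at 10.23 there, against 10.92 ± 0.16 (SD, n = 3) on the others. The difference was -0.69 ± 0.12 (SE), with an interval from -0.98 to -0.40, or a fold of 0.62. With the mean of the Mycn probe sets in place of the brightest it was -0.424. The difference was not called (limma, Benjamini-Hochberg adjusted p = 0.0825, unadjusted p = 0.0008), while 84 genes (0.462%) were. Over the alternatives with all 4 arrays the adjusted p of limma ran from 0.0658 to 0.276. The second Mycn probe set differed by -0.54 ± 0.16 and the last by -0.05 ± 0.09.

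Myc was at its highest in line 3, where Mycn was lowest by its brightest probe set. Its 9.10 there stood against 8.83 ± 0.18 (SD, n = 3) on the others, a difference of 0.28 ± 0.13 (SE) with an interval from -0.04 to 0.59 (limma, Benjamini-Hochberg adjusted p = 0.519). Pou5f1, Sox2 and Klf4 differed in line 3 by -0.02, -0.01 and -0.03, each with an SE of 0.08 to 0.10. Over the members, 1 of 5 had an unadjusted p under 0.05 there, against 11.6% of all genes. Each gene read by its brightest probe set, Pou5f1 and Mycn were lowest on line 3, as were 28.8% of all genes. Myc was highest there, as were 25.7%.

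Lines 1 and 2 were set against the other arrays in the same way, and limma called 0 genes (0%) in either fit. At an unadjusted p under 0.05, 2.77% of genes passed for line 1 and 2.33% for line 2. Myc in line 2 was the 1 member among them. It was lower there by 0.33, at 8.65 against 8.98 ± 0.14 (SD, n = 3) on the others (limma, unadjusted p = 0.0409, Benjamini-Hochberg adjusted p = 1). Sox2 had its widest gap in line 1, at 12.62 against 12.45 ± 0.04, with an interval of the difference from -0.04 to 0.38.

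**Figure D3:**
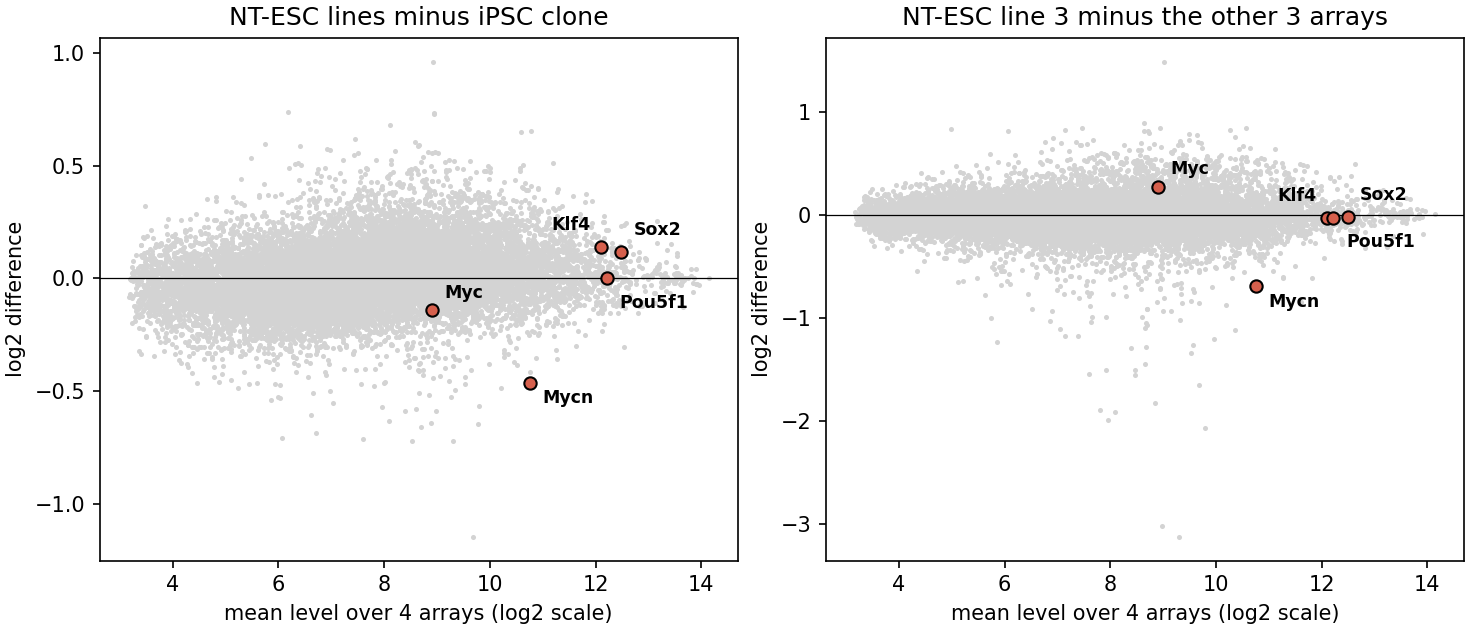
Log2 difference (y axis) against mean level over the 4 arrays (x axis, log2 scale) for 18193 genes in grey and the 5 members in red, for the lines minus the clone (left) and for line 3 minus the other arrays (right). Mycn lies at -0.46 and -0.69, and Pou5f1, Sox2 and Klf4 lie within 0.14 of 0.

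Genes whose pattern over the 4 arrays was most like that of Mycn were sought among 614 bright genes with a range of at least 0.5, by the root mean square difference of levels centred on each gene's mean. Over 4 arrays such a match is a weak description. The nearest were Lef1, a Wnt effector, and Pim2, a kinase, each at a distance of 0.034, followed by Zbtb8a at 0.057. Lef1 stood at 9.29, 9.35 and 8.76 in the lines, against 9.66 in the clone. Pim2 stood at 9.04, 9.02 and 8.40 in the lines, against 9.26 in the clone. Both were lowest in line 3 and highest in the clone, as Mycn was by its brightest probe set, which follows from how they were chosen. The other members had ranges under 0.5 and were not matched.

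**Figure D4:**
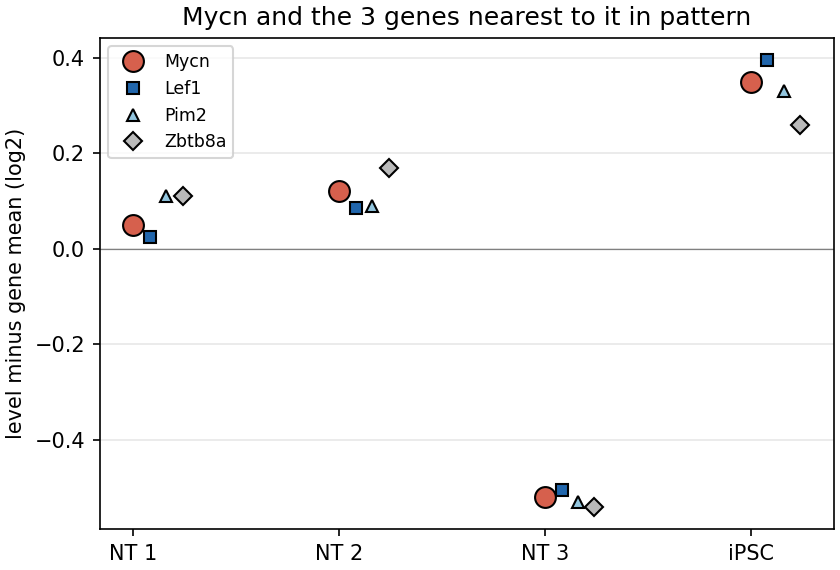
Level minus the gene's own mean over the arrays (y axis, log2) for Mycn, Lef1, Pim2 and Zbtb8a on the arrays of NT-ESC lines 1 to 3 and the iPSC clone (x axis), 1 point per gene and array. All 4 genes are lowest in line 3 and highest in the clone, and Lef1, Pim2 and Zbtb8a were chosen for their likeness to Mycn.

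Genes of the network around Myc and Max were taken as a list of 12, all measured and all bright. The list mixes Max with other genes of the network, among them repressors that bind Max and another Myc gene. Their median difference between lines and clone was -0.0118, or 0.008 without line 3, against -0.00311 over all genes and 0.0157 over bright genes. Max, the obligate partner, stood at 9.26, 9.29 and 9.39 in the lines, against 9.38 in the clone (named after its value was seen). Mga, a Max-binding repressor of germ line genes, stood at 9.61, 9.46 and 9.44 in the lines, against 9.20 in the clone, and Mlxip differed by 0.27 ± 0.10 (SE). Mycl, another Myc gene, differed by -0.11 ± 0.08 and Mxd4, a Max dimerization repressor, by -0.15 ± 0.12, or -0.09 without line 3. limma called 0 of the 12, and 3 were higher at an unadjusted p under 0.05, as were 3.46% of all genes.

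The 26 genes listed as Myc targets, mostly of nucleolar and metabolic function, were all bright and had a median difference of -0.0210. Of them 7 lay below the clone in all lines, as did 26.7% of all genes and 21.4% of bright genes. Another 4 lay above it, as did 24.7% of all genes and 29.9% of bright genes. limma called 0 of them and 1 was lower at an unadjusted p under 0.05, as were 2.07% of all genes. That was Srm, spermidine synthase, at 11.62, 11.67 and 11.55 in the lines, against 11.85 in the clone. Ccnd2, cyclin D2, had the lowest difference, with 9.40, 9.59 and 9.02 in the lines, against 9.70 in the clone. It was lowest in line 3, as Mycn was by its brightest probe set. Shmt2, a serine hydroxymethyltransferase, differed by 0.16 ± 0.13 (SE), or 0.08 without line 3, and the nucleolar helicase Ddx21 by 0.10 ± 0.10, or 0.04 without line 1. In line 3 against the other arrays the median was -0.0355, and 13 of the 26 were lowest there and 6 highest, against 28.8% and 25.7% of all genes. Of 21 targets with a promoter window 9 held the E-box CACGTG (42.9%), against 8.09% of 27025 genes with a window. The latter were not limited to measured or bright genes, and the difference was not tested. Of the 5 Myc-repressed genes described next that had a window, 0 held it (0%).

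Genes that Myc is known to repress were few, with 7 measured, and had a median difference of 0.155. Of the 7, 6 were bright. In 4 of them all lines lay above the clone and in 1 all lay below it. The shares were 24.7% and 26.7% of all genes, and 29.9% and 21.4% of bright genes. Cdkn1a, the p21 inhibitor of cell cycle kinases, stood at 10.31, 10.39 and 10.31 in the lines, against 9.98 in the clone. Ndrg1 stood at 9.17, 9.37 and 9.51 in the lines, against 8.87 in the clone. It is also a hypoxia gene, and Cdkn1a is a p53 target. limma called 0 of the 7, although 3 were higher at an unadjusted p under 0.05, as were 3.46% of all genes. Cdkn2b, another kinase inhibitor, differed by -0.04 ± 0.08 (SE).

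The 15 measured cofactors and stability factors of Myc proteins had a median difference of 0.0569. Of them limma called 0, against 0% of all genes, and 0 had an unadjusted p under 0.05, against 5.53%. Ep400, a chromatin remodeller recruited by Myc, differed by 0.17 ± 0.10 (SE), and Pim1, a kinase that acts on Myc, by 0.16 ± 0.15, or 0.27 without line 3. Aurka, a kinase that stabilizes N-Myc, differed by -0.06 ± 0.10 and Usp28, a deubiquitinase of Myc, by -0.09 ± 0.10.

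**Figure D5:**
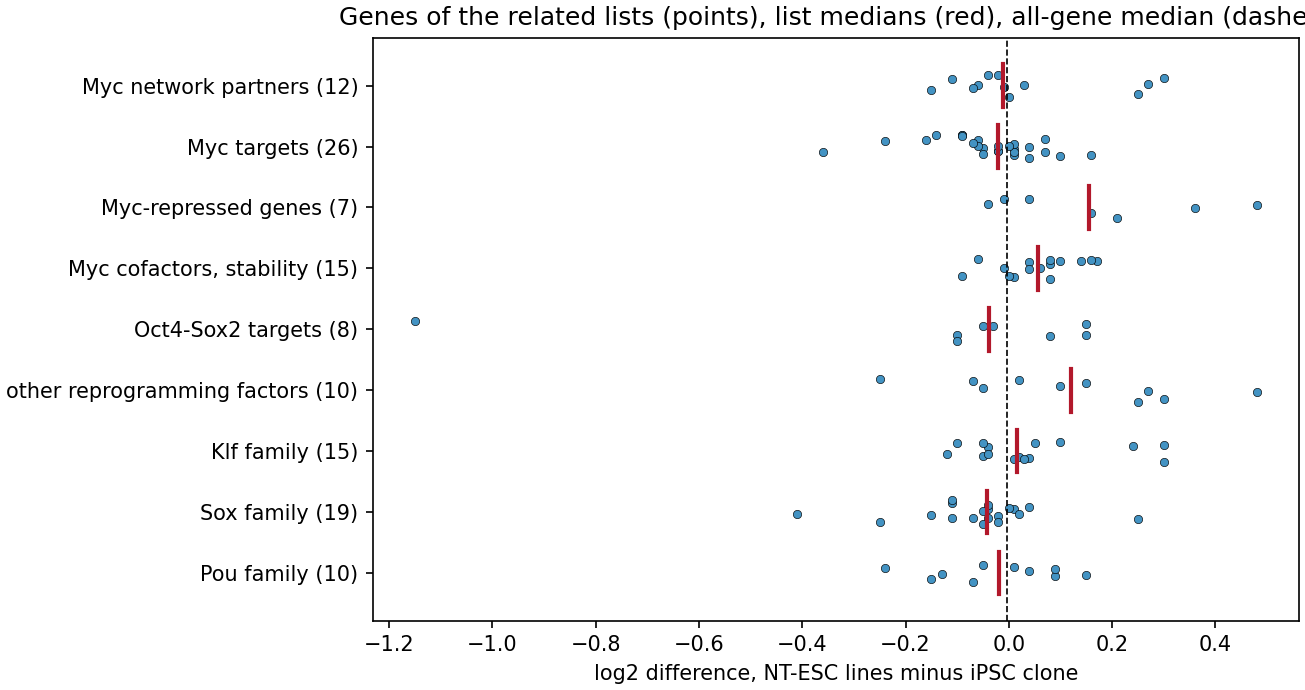
Log2 difference of the NT-ESC lines minus the iPSC clone (x axis) for each measured gene of the related lists (points, with the number of genes in brackets), with list medians in red and the median of all genes dashed. Lefty1 among the Oct4-Sox2 targets lies farthest from 0, at -1.15 (-0.67 without line 3), and Ndrg1 and Tbx3 lie farthest above it, at 0.48 each.

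Of the known joint targets of Oct4 and Sox2, 8 were measured, with a median difference of -0.0389. Of these limma called 0, against 0% of all genes, and 0 had an unadjusted p under 0.05, against 5.53%. Nanog stood at 12.28, 12.28 and 12.04 in the lines, against 12.05 in the clone. Fgf4, a growth factor gene with a joint Oct4 and Sox2 site, stood at 11.15, 11.43 and 10.83 in the lines, against 11.24 in the clone, and the groups overlapped. Zfp42 differed by 0.15 ± 0.08 (SE). Lefty1, an inhibitor of Nodal, stood at 9.60, 10.14 and 8.45 in the lines, against 10.54 in the clone. Its difference was -1.15 ± 0.60, or -0.67 without line 3. In line 3 the list's median was -0.179 against the other arrays, and 5 of the 8 were lowest there, against 28.8% of all genes. Without line 3 the median between lines and clone was 0.059.

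Among 10 other genes used as reprogramming factors the median difference was 0.121. Tbx3 stood at 9.68, 9.64 and 9.50 in the lines, against 9.12 in the clone, and Esrrb at 11.38, 11.30 and 11.27 in the lines, against 11.01 in the clone. Both were above the clone in every line. Lin28a, an RNA-binding protein, stood at 11.26, 11.23 and 10.93 in the lines, against 11.40 in the clone, and Glis1 differed by -0.07 ± 0.08 (SE). limma called 0 of the 10, and 2 were higher at an unadjusted p under 0.05, as were 3.46% of all genes.

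Paralogues of the members were measured as families. The 15 other Klf genes had a median difference of 0.0166, which was -0.023 with quantile normalization. Among them were Klf10 at 0.30 ± 0.09 (SE), Klf6 at 0.30 ± 0.10, Klf9 at -0.10 ± 0.08 and Klf13 at -0.12 ± 0.09. The 19 other Sox genes, 12 of them bright, had a median of -0.0430. Of the 19, 9 lay below the clone in all lines and 2 above it, against 26.7% and 24.7% of all genes. Sox3, a close relative of Sox2, stood at 7.38, 7.48 and 7.25 in the lines, against 7.78 in the clone. Sox4 differed by -0.25 ± 0.08, Sox15, which also pairs with Oct4, by 0.25 ± 0.10 and Sox5 by 0.01 ± 0.08. The 10 measured Pou genes, 5 of them bright, had a median of -0.0188, or 0.004 without line 1. Pou3f1 differed by -0.24 ± 0.15, or -0.14 without line 3, and Pou5f2 by 0.04 ± 0.10. limma called 0 genes in each of the 3 families, in the lines against the clone. At an unadjusted p under 0.05, 2 Klf genes and 1 Sox gene were higher, 2 Sox genes were lower and 0 Pou genes passed, while 3.46% of all genes were higher and 2.07% lower.

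Markers of pluripotent cells were bright on every array, with a mean level over 10 genes of 11.57, 11.65 and 11.52 in the lines, against 11.53 in the clone. Fibroblasts, which also express Myc and Klf4, can remain from the feeder layer. Their 14 markers had mean levels of 8.34, 8.46 and 8.34 in the lines, against 8.36 in the clone, 11 of them bright. Of the 14, 7 were above the clone in all lines and 3 below it, against 24.7% and 26.7% of all genes. The 8 primitive endoderm markers had 7.12, 7.16 and 7.20 in the lines, against 7.14 in the clone, with 2 bright. The 7 trophectoderm markers had 8.09, 7.95 and 7.76 in the lines, against 7.67 in the clone. Their median difference was 0.41. By line, their median gap to the clone was 0.331, 0.172 and 0.0116 for lines 1, 2 and 3. Of the 7, 3 were above the clone in all lines and 1 below it, against 24.7% and 26.7% of all genes. At an unadjusted p under 0.05 by limma 1 was higher, Tfap2c, and 1 lower, Cdx2, against 3.46% and 2.07% of all genes. Tfap2c, a factor also active in germ cells, stood at 9.25, 8.97 and 8.92 in the lines, against 8.49 in the clone. Eomes differed by 0.41, Hand1 by -0.02 and Elf5 by -0.04. The keratin gene Krt8 stood at 9.62, 9.35 and 8.41 in the lines, against 8.39 in the clone, and Krt18, its partner, at 9.37, 9.08 and 8.01 in the lines, against 8.30 in the clone. Cdx2, named after its value was seen, stood at 6.11, 6.23 and 6.08 in the lines, against 6.45 in the clone, below the median level throughout. Eomes, Elf5 and Krt18 were named in the same way. The part of other cells in the member differences was not tested.

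Some array measures were lower in the clone than in every line, though the lines also differed among themselves. Over genes with a mean level of 10 or above, the median gap to the clone was 0.0368, 0.0244 and 0.0142 for lines 1, 2 and 3, in the direction of the Sox2 and Klf4 differences. The SD over probe sets of the values relative to the array mean was 0.283, 0.2817 and 0.2817 in the lines, against 0.2788 in the clone. The hybridization control BioB had 8.82, 8.50 and 8.71 on the line arrays, against 8.44 on the clone array. The gap between 3' and 5' probe sets of Actb was 0.276, 0.421 and 0.293 in the lines, against 0.218 in the clone. For the pyruvate carboxylase control this gap was 0.299, 0.438 and 0.322 in the lines, against 0.302 in the clone, which lay inside their range. The part of these in the member differences was not tested.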

How the data were processed

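Messenger RNA of 3 NT-ESC lines and 1 iPSC clone was measured on 1 array each. The authors deposited log2 values, and the software behind them is not given in the sources used here. Taken out of log2, these deposited values averaged 1 on every array and ran from 0.422 to 2.03, the form that log intensities divided by their array mean would have. Each such ratio was multiplied by an assumed mean of 7, the same on every array. A mean of 6 makes differences 14.3% smaller, and 7.86, which puts the brightest probe set at 16, makes them 12.3% larger.

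The table had 45101 probe sets. Tests left out 64 controls. The platform annotation named 1 gene for 34945 probe sets, of which 34741 matched the RefSeq table of GRCm38.p6 by gene ID and took its symbols. Where a gene had several probe sets, the one with the highest mean stood for it. Differences, SEs, p-values and 95% intervals came from two-sided tests with lmFit and eBayes of limma 3.58.1, run in R 4.3.3, with Benjamini-Hochberg adjustment over all genes or all probe sets. The intervals are not adjusted. Since the iPSC clone had 1 array, the residual spread was that of the lines, with 2 degrees of freedom and 3.57 more from the prior, and the clone was taken to vary alike. The p-values measure the spread between these arrays, which may be technical, and their number limits the precision.

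The members, lists and tests were chosen with earlier results of these data known. Named genes are the members, up to 2 bright genes in each direction of each list and the 3 nearest patterns. Max, Cdx2, Eomes, Elf5, Krt18 and the array measures were added after their values were seen. Alternatives were quantile normalization, the deposited scale, other assumed means, the mean of probe sets, a filter on dim genes and leaving out arrays. As a check, simulated data of 18193 genes on 3 arrays against 1 were fitted. Shifts of 0.5 log2 were found for 2.99% of the changed genes, shifts of 1 for 66.3% and shifts of 2 for 90.0%.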

Additional observations from a re-analysis of the deposited data

How the results depend on the processing

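Of 201 recomputed values, 169 kept their direction, their side of the threshold or their size within the spread between the lines. No alternative brought a member past the threshold in the lines against the clone or in line 3 against the other arrays. In simulated data shifts of 0.5 log2, about the size of the Mycn difference between lines and clone, were found for 2.99% of the changed genes. The spread of each simulated gene was drawn at random from those of all genes. The share is therefore not a rate for Mycn, whose SD over the lines was 0.35. The lack of a call does not show that a member was alike on the arrays.

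With quantile normalization the Pou5f1 difference between lines and clone was -0.012 in place of 0.00, and without line 1 it was -0.013; the range when leaving out lines was -0.013 to 0.008. In line 3 against the other arrays, leaving out arrays, which was added after seeing the data, gave Sox2 differences from -0.061 to 0.047 and Klf4 differences from -0.084 to 0.008, the positive ones without line 1. The count of genes called for line 3 was 127 with quantile normalization, 15 on the deposited scale and 168 with the mean of probe sets, against 84, and 0 without any 1 of the other arrays, where 1 residual degree of freedom is left.

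List medians between lines and clone moved with scaling. With quantile normalization they were -0.065 for Myc targets, 0.127 for Myc-repressed genes, 0.008 for cofactors, -0.023 for the Klf family and -0.068 for the Sox family. On the deposited scale, whose unit is smaller, they were 0.027 for Myc-repressed genes, 0.009 for cofactors, 0.015 for other reprogramming factors, 0.002 for the Klf and -0.008 for the Sox family. An assumed mean of 6 gave 0.133 for Myc-repressed genes. With the mean of probe sets the medians were 0.132 for Myc-repressed genes, 0.039 for the Klf and -0.06 for the Pou family. Without dim genes they were 0.182 for Myc-repressed genes and -0.052 for the Pou family. Leaving out a line gave -0.02 to 0.008 for the Myc and Max network and 0.116 to 0.19 for Myc-repressed genes. It gave 0 to 0.054 for the Klf and -0.018 to 0.004 for the Pou family. The cause of these moves was not tested. No paired analysis was possible because the clone, the donor of all 3 lines, had 1 array.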
